A study of Canis lupus familiaris with 36 samples.

Results

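CD3e and CD8a, the markers of T cells as a whole and of their cytotoxic branch, were examined across oral squamous cell carcinomas (OSCC) of pet dogs. They are 2 of the 48 genes on a custom NanoString panel, which held 44 immune genes and 4 housekeeping genes, and they were taken by their names in the value table. Of the immune entries, 2 carry names of the same gene, and each entry is counted as a gene here. RNA came from 34 samples labelled tumor and 2 labelled mucosal stroma, which the design text describes as normal mucosa and which are called mucosa here. The tumors were spontaneous and the labels list no treatment, genotype or age. The 36 samples came from 33 dogs, so some share a dog, and the labels do not say which ones. RNA was extracted from archived frozen or formalin-fixed tissue, and the labels do not divide the samples by this. The authors' methods also mention flash-frozen lymph node tumor tissue, and no label marks a sample as lymph node. Samples are named here by the patient number in the labels.

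CD3e encodes the epsilon chain of CD3, the complex that carries the signal of the T cell receptor into the cell, and it is made by T cells of every lineage. CD8a encodes the alpha chain of CD8, the coreceptor that binds MHC class I on a target cell, and it marks cytotoxic T cells, although some NK and dendritic cells also make it. The level of CD3e in a tumor therefore follows T cells in general, and the level of CD8a relative to CD3e is often read as the cytotoxic share. In whole tissue, fewer T cells and less of the transcript in each T cell cannot be told apart. The probes of the genes can capture with different efficiency, so their levels are not ranked against each other here, and CD8a minus CD3e is read only between samples.

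All values are the log2 of housekeeping-normalized counts. Total counts per sample, recovered from these values, lay between 27092 and 665587 for tumors, and the mucosa samples had 117883 and 149876. Positive controls are spiked-in targets of fixed amount, and the second of them divided by the third gave a ratio of 2.59 to 2.85 in 9 samples, namely the tumors of patients 1 to 7 and both mucosa samples, and 1.54 to 1.77 in the other 27 tumors. Both genes were counted above the negative-control background in all 36 samples. The lowest CD3e count was 107, in the mucosa of patient 9, and the lowest CD8a count was 61, in the tumor of patient 2. The smallest margin was that of CD8a in the tumor of patient 6, at 1.88 times its background.

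CD3e varied 69.2-fold among the tumors. Its mean log2 value was 10.28 ± 1.39 (SD, n = 34), with the lowest value of 8.08 in patient 15, a median of 10.31 and the highest value of 14.19 in patient 34. CD8a varied 122.8-fold, with a mean of 9.36 ± 1.74 (SD, n = 34), a lowest value of 6.54 in patient 2, a median of 8.99 and a highest value of 13.48 in patient 33. The tumors of patients 33 and 34 stood well apart from the others in both genes. Their CD3e values were 13.89 and 14.19, and the next highest was 12.17 in patient 26. Their CD8a values were 13.48 and 13.32, and the next highest was 11.80 in patient 22. Without these tumors the fold range of CD3e was 17.0 and that of CD8a was 38.4.

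**Figure D1:**
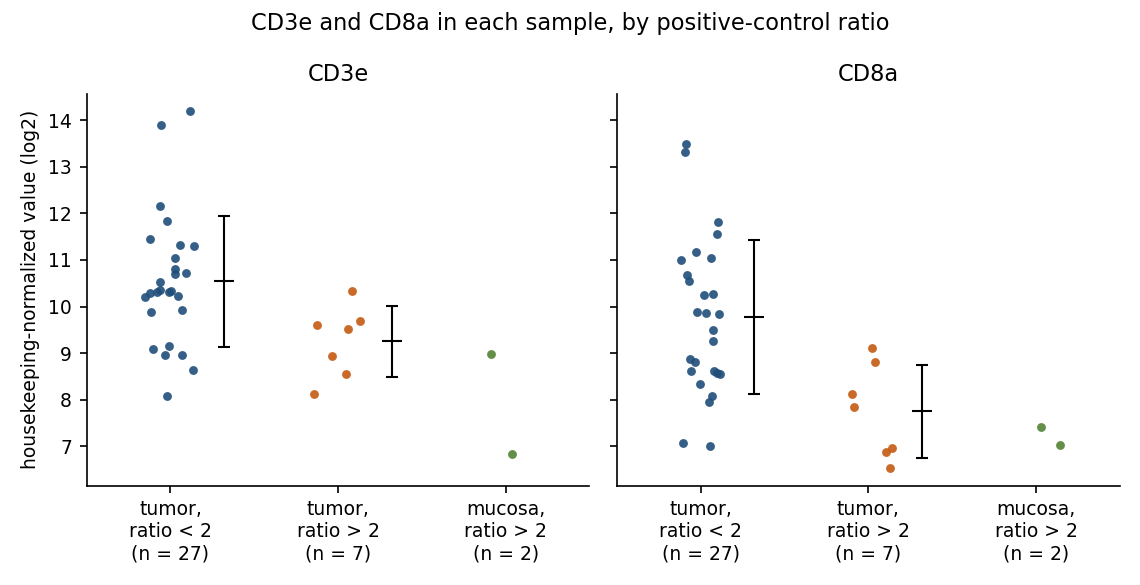
Log2 housekeeping-normalized values of CD3e (left) and CD8a (right), 1 point per sample, for the 27 tumors with a positive-control ratio below 2, the 7 tumors above 2 and the 2 mucosa samples; horizontal marks and bars are the mean and SD of each tumor group. The tumors of patients 33 and 34 are the highest pair in both panels, at 13.89 and 14.19 for CD3e and at 13.48 and 13.32 for CD8a, and the tumors with a ratio above 2 reach no higher than 10.33 for CD3e and 9.12 for CD8a.

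Ranked by their SD across the tumors, CD8a was in place 3 and CD3e in place 6 of the 44 immune genes. Without patients 33 and 34, CD8a was in place 4 and CD3e in place 12. CD8a varied more than CD3e over the same tumors, by 0.35 in SD (permutation test with 100000 draws, two-sided, p = 0.00675, n = 34), and by 0.41 without that pair (p = 0.0024). The larger spread did not pass the threshold within either class of positive-control ratio, where the SDs differed by 0.25 in both (exact permutation p = 0.0901 in the 7 tumors above 2, and permutation p = 0.0991 in the 27 tumors below 2).

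The design compares tumors with mucosa to ask whether T cells are more abundant in the carcinomas. The mucosa of patient 8 had a CD3e value of 8.98 and that of patient 9 had 6.85, a gap of 2.13. The values of 27 tumors exceeded both, 7 lay between them and 0 lay below both. CD8a had mucosa values of 7.41 and 7.04, a gap of 0.37, with 29 tumors above both, 1 between and 4 below both. The mean difference, tumor minus mucosa, was 2.36 for CD3e (standard error 0.97, 95% confidence interval 0.40 to 4.33, limma adjusted p = 0.0535) and 2.14 for CD8a (standard error 1.18, 95% confidence interval -0.25 to 4.52, limma adjusted p = 0.155). Neither gene passed an adjusted p below 0.05, which 34.1% of the 44 immune genes did.

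These differences depended on the controls and on the positive-control ratio. Within the 9 samples with a ratio above 2, the difference was 1.34 for CD3e (limma adjusted p = 0.175) and 0.53 for CD8a (limma adjusted p = 0.654). The CD3e difference was 3.43 without the mucosa of patient 8 (limma adjusted p = 0.0612) and 1.30 without that of patient 9 (limma adjusted p = 0.478). CD3e passed the threshold without patients 33 and 34 (2.13, limma adjusted p = 0.0215). CD8a passed it only in the unequal-variance test per gene, in which the mucosa samples, 0.37 apart, supply their own variance (adjusted p = 0.000447 from that test fitted across all genes). The median difference over the 44 genes was 0.91, and after scaling to equal medians over the immune genes it was -0.30, with 1.16 for CD3e and 0.93 for CD8a.

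Among the tumors, both genes were lower in the 7 with a positive-control ratio above 2, although the labels give all of these samples the same group. CD3e in these tumors ranged from 8.13 through a median of 9.51 to 10.33, against 8.08, 10.33 and 14.19 in the other 27. CD8a ranged from 6.54 through a median of 7.85 to 9.12, against 7.01, 9.83 and 13.48. The groups overlapped in both genes, and 14 of the 27 tumors for CD3e and 16 for CD8a lay above all 7. The difference, ratio below 2 minus ratio above 2, was 1.29 for CD3e (standard error 0.53, limma adjusted p = 0.120) and 2.02 for CD8a (standard error 0.62, limma adjusted p = 0.0517). Neither passed the threshold, which 2.27% of the 44 genes did. CD8a passed it without patients 33 and 34 (1.73, limma adjusted p = 0.030). After scaling to equal medians it also passed (1.59, limma adjusted p = 0.0160), as it did after scaling by the positive controls (2.39, limma adjusted p = 0.0245).

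CD8a rose with CD3e from tumor to tumor. Spearman's rho was 0.856 and Pearson's r was 0.895 over the 34 tumors (permutation test with 100000 draws, two-sided, p = 1e-05 for each, the smallest that these draws can give). The tumors farthest from the median CD3e value were those of patients 33 and 34, and without them rho was 0.828 and r was 0.836. Within the classes of the positive-control ratio, rho was 0.802 in the 27 tumors below 2 and 0.964 in the 7 above 2 (exact permutation p = 0.00278). The common scale factor of a sample enters both genes. After scaling to equal medians over the immune genes, rho was 0.712.

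**Figure D2:**
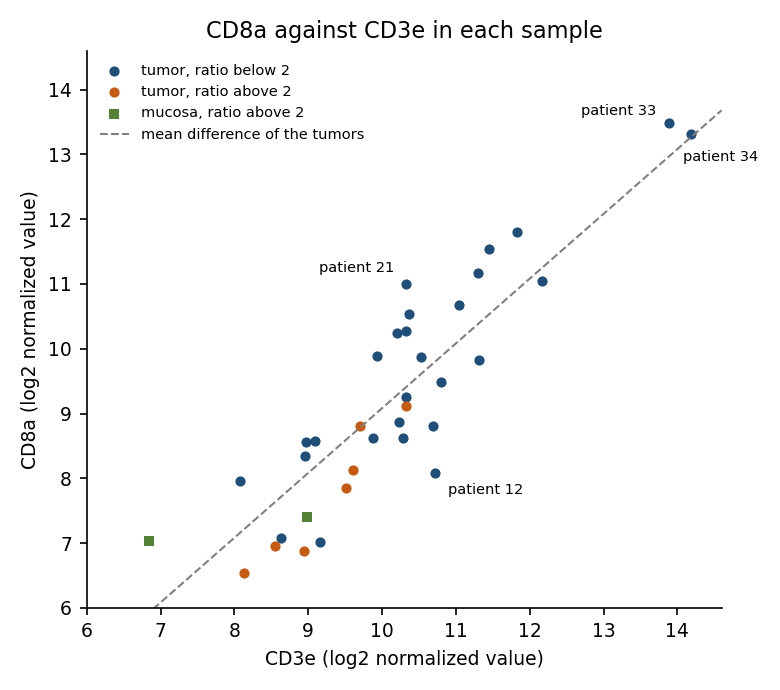
CD8a against CD3e, both as log2 normalized values, 1 point per sample, with tumors coloured by positive-control ratio and mucosa as squares; the dashed line has slope 1 and lies at the tumors' mean difference of -0.92. The tumors rise together (rho 0.856), and patients 12 and 21 lie farthest below and above the line, at differences of -2.65 and 0.67.

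CD8a minus CD3e, which no scaling of whole samples can change, had a mean of -0.92 ± 0.79 (SD, n = 34) and spanned 9.92-fold. The lowest value was -2.65 in patient 12, the median -0.98 and the highest 0.67 in patient 21. Patient 12 was not poor in T cell transcripts: its CD3e value of 10.72 was in place 10 of the 34, and its CD8a value of 8.08 was in place 27. Patient 21 had a CD3e value of 10.33, close to the median, and a CD8a value of 11.00, but it was also the shallowest sample, with 181 CD3e and 287 CD8a counts. Its 95% counting interval, 0.39 to 0.94, did not reach that of the next tumor, patient 29, at 0.09 to 0.26. The intervals, taken from the exact binomial share of CD8a among the counts of both genes, cover counting error only. Patients 33 and 34, with the highest values of both genes, were in places 12 and 16 of the 34 by this difference, at -0.41 and -0.87.

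**Figure D3:**
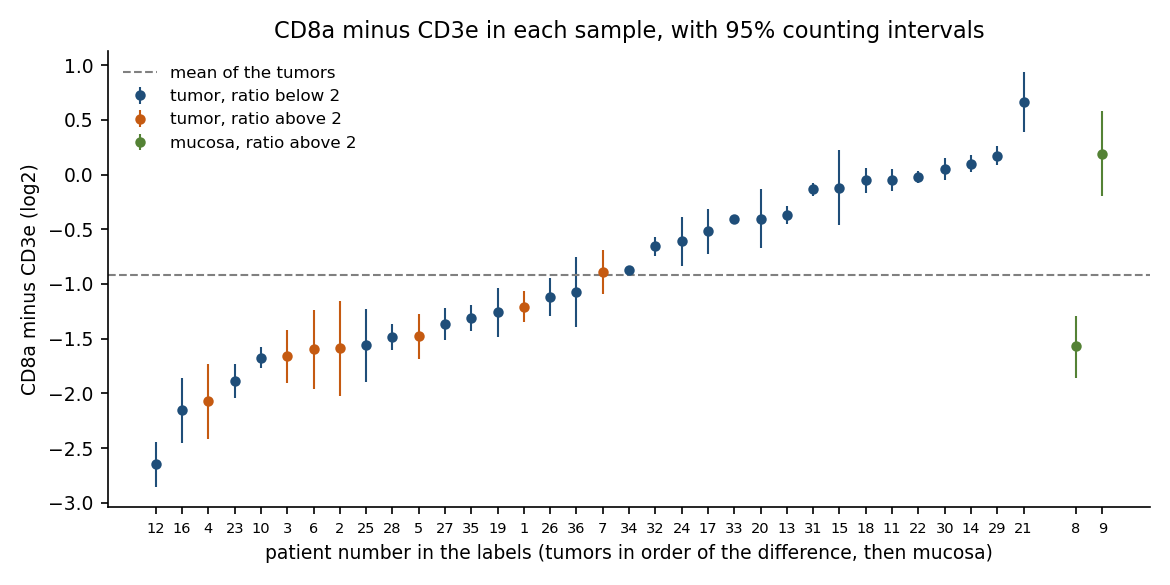
CD8a minus CD3e in log2 for each sample, tumors in order of the value and then mucosa; points are coloured by positive-control ratio, bars are 95% counting intervals and the dashed line is the tumors' mean of -0.92. The tumors span -2.65 to 0.67, and the mucosa samples of patients 8 and 9, at -1.57 and 0.19, lie far apart within that span.

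The mucosa samples were at -1.57 in patient 8 and 0.19 in patient 9. Of the tumors, 25 lay between these values, 8 below both and 1 above both. Tumor minus mucosa, the mean difference was -0.23 (two-sided exact permutation p = 0.686, 630 splits), and it was 0.65 when the mucosa of patient 9 was left out. These samples therefore gave no direction for CD8a relative to CD3e in tumors against mucosa.

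CD8a minus CD3e was lower in the 7 tumors with a positive-control ratio above 2, where it ranged from -2.07 through a median of -1.59 to -0.89. In the other 27 it ranged from -2.65 through a median of -0.61 to 0.67, and 16 of these lay above all 7 while 2 lay below them all. The difference was 0.73 (two-sided exact permutation p = 0.0284, 5379616 splits), a comparison that was chosen after the values were seen and is not adjusted for others. It was 0.72 without patients 33 and 34 (exact permutation p = 0.0373). The control ratio and whatever else distinguishes these 7 tumors cannot be told apart.

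The 43 other immune genes were then ranked by their Spearman correlation with each marker across the tumors, with Benjamini-Hochberg adjustment over the 43, and a gene was called at an adjusted p below 0.05. With CD3e, 24 genes were called positive and 0 negative, which is 55.8% of those tested. With CD8a, 22 were called positive and 1 negative, which is 53.5%. The median correlation over all genes tested was 0.410 with CD3e and 0.385 with CD8a. Of the 42 genes that are neither marker, 20 were called with both, 3 with CD3e and not CD8a (TNF and CXCL2 among them), 2 with CD8a and not CD3e (IFNg and IL8), and 17 with neither. After scaling to equal medians over the immune genes the picture was narrower, with 7 genes positive and 11 negative for CD3e, and 5 positive and 9 negative for CD8a. Because that median is taken over the immune genes themselves, this scaling also removes level changes that most of them share. Scaling by the positive controls, which uses no housekeeping gene, gave 39 positive for CD3e and 37 for CD8a. It kept all 24 calls with CD3e and, of the 23 with CD8a, all but IL8. This scaling leaves differences in RNA amount between samples in every gene. The median correlation under it was 0.722 with CD3e and 0.647 with CD8a, so its calls do not single out particular genes. Within the 7 tumors with a ratio above 2 no gene was called with either marker (permutation test with Benjamini-Hochberg adjustment, 12 genes each at an unadjusted exact p below 0.05). The median correlation there was 0.536 with CD3e and 0.500 with CD8a, so the correlations were not weaker in the median. Single genes called over the 34 tumors did turn negative there, among them TNF (-0.143) and ICOSLG (-0.25) with CD3e. Within the 27 below 2, 21 genes were called with CD3e and 20 with CD8a.

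Genes of T cell costimulation followed CD3e most closely. ICOS, an inducible receptor of activated T cells, had a rho of 0.914 with CD3e, CD27, a TNF family receptor of T cells, one of 0.904, and CD28, the classical costimulatory receptor, one of 0.903. These were places 1 to 3 of the 43. With CD8a their values were 0.692, 0.829 and 0.714. All 6 relations were called (permutation test, adjusted p = 3.91e-05 with CD3e and 5.38e-05 with CD8a). Scaled to equal medians, the values were 0.642, 0.777 and 0.740 with CD3e, all called, and 0.216, 0.635 and 0.391 with CD8a, of which only that of CD27 was called (adjusted p = 0.325 for ICOS and 0.0578 for CD28). OX40, the fourth member of this list and also a receptor of activated T cells, was called with neither marker. The level of ICOS itself ranged from 7.26 to 11.35 across the tumors, that of CD27 from 5.17 to 11.29 and that of CD28 from 5.74 to 9.91.

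The 3 inhibitory receptors were all called positive with both markers, against 55.8% of all genes with CD3e and 53.5% with CD8a. CTLA4, which competes with CD28 for its ligands, had a rho of 0.880 with CD3e and 0.648 with CD8a. PD-1, a receptor of activated and exhausted T cells, had 0.766 and 0.710. LAG3, which binds MHC class II, had 0.707 and 0.769. With equal medians LAG3 was at -0.19 with CD3e and 0.02 with CD8a, and neither was called, while CTLA4 was called with CD3e (0.414) and not with CD8a (0.004). PD-1 stayed called with both (0.543 and 0.474). Of the lineage factors, TBX (T-bet, the factor of type 1 responses) had 0.864 and 0.800, FOXP3 (regulatory T cells) 0.774 and 0.633, and GATA3 (type 2 responses, and also epithelium) 0.610 and 0.712. BCL6, the factor of follicular helper T cells, was called with neither. Under equal medians TBX was called with both markers (0.713 and 0.581), GATA3 with CD8a alone (0.430, against 0.274 with CD3e) and FOXP3 with neither (0.324 and 0.108).

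Of the 5 cytotoxic effectors, 4 were called with each marker, but not the same 4, against 55.8% of all genes with CD3e and 53.5% with CD8a. PRF1, the pore-forming perforin, had a rho of 0.658 with CD3e and 0.602 with CD8a. GZMA had 0.541 and 0.685, and GZMB had 0.524 and 0.572, both being granzymes, the proteases that perforin admits to the target cell. TNF was called with CD3e (0.490, adjusted p = 0.007) and not with CD8a (0.344, adjusted p = 0.078). IFNg, the cytokine of type 1 responses, was called with CD8a (0.385, adjusted p = 0.047) and not with CD3e (0.236, adjusted p = 0.261). None of these positive calls held after scaling to equal medians, where PRF1 was at 0.294 with CD3e and 0.103 with CD8a, GZMA at 0.228 and 0.385, and GZMB at 0.077 and 0.157. TNF was then at -0.06 with CD3e and IFNg at -0.36 with CD8a, and IFNg was called negative with CD3e (-0.51, adjusted p = 0.00932). Positive-control scaling, which leaves differences in RNA amount in every gene, called 39 of 43 genes with CD3e and 37 with CD8a. Under it all 5 effectors were called with both markers. PRF1 was then at 0.804 and 0.686, GZMA at 0.736 and 0.749, and GZMB at 0.726 and 0.714. TNF was at 0.725 and 0.549, and IFNg at 0.670 and 0.641. The difference between the correlations was itself not called for TNF or IFNg.

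Among the 7 entries for ligands and receptors of antigen-presenting cells, 3 were called positive with each marker. They were CD40 (0.736 with CD3e and 0.698 with CD8a), PDCD1LG2 (0.696 and 0.678) and ICOSLG, the ligand of ICOS (0.383 and 0.388). Over all genes the shares were 55.8% and 53.5%. The list holds 1 uncalled gene under 2 names, so its share is not read as lower than these. CD40 is the receptor through which helper T cells activate antigen-presenting cells, and PDCD1LG2 encodes PD-L2, a ligand of PD-1. None stayed called after scaling to equal medians, where CD40 was at 0.189 with CD3e and 0.106 with CD8a, PDCD1LG2 at 0.325 and 0.321, and ICOSLG at -0.31 and -0.25. Of the 6 cytokines, 1 was called with each marker, the anti-inflammatory IL10, which was at -0.34 and -0.28 after that scaling. The 3 inflammatory chemokines divided. CCL2, which attracts monocytes, was called positive with both markers, but was at -0.002 with CD3e and -0.035 with CD8a after that scaling. CXCL2, which attracts neutrophils, was called positive with CD3e, though not after that scaling (0.239). IL8, also a neutrophil chemokine, was the only gene called negative, at -0.529 with CD8a (adjusted p = 0.003). IL8 was at -0.331 with CD3e (adjusted p = 0.086). With equal medians it was called negative with both, at -0.69 with CD8a and -0.45 with CD3e. Within the 27 tumors with a ratio below 2 the relation of IL8 to CD8a was -0.372 (adjusted p = 0.102), and within the 7 above 2 it was -0.857 (exact permutation, adjusted p = 0.146).

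**Figure D4:**
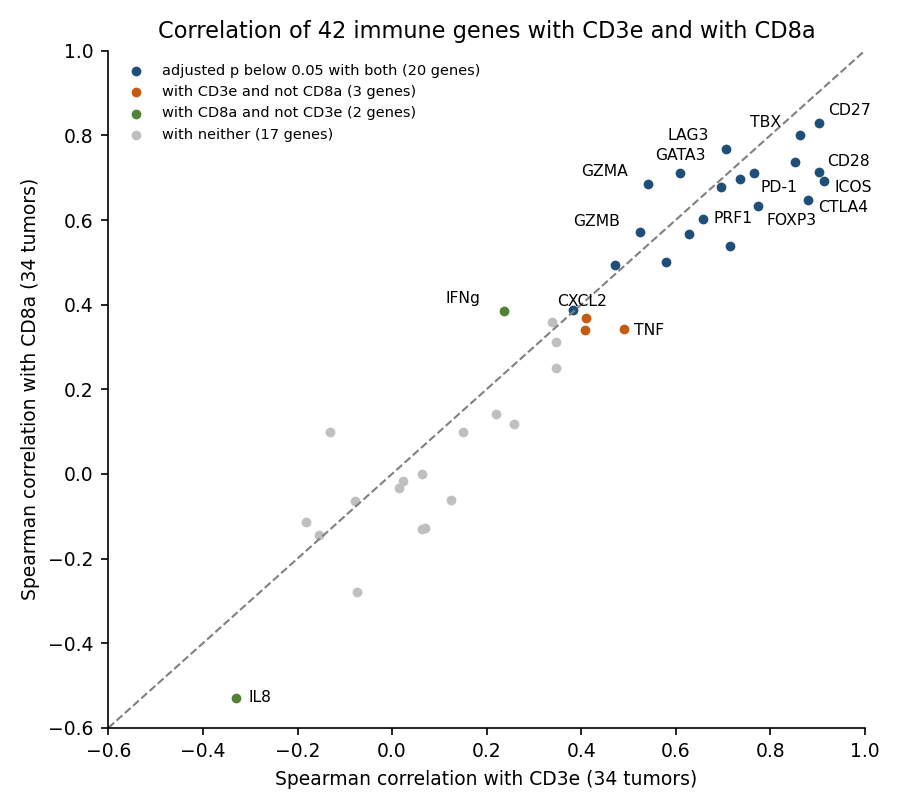
Spearman correlation over the 34 tumors with CD3e (horizontal) and with CD8a (vertical) for the 42 immune genes that are neither marker, 1 point per gene, coloured by whether the adjusted p was below 0.05; the dashed line marks equal correlations. ICOS (0.914 and 0.692) and CTLA4 (0.880 and 0.648) lie below the line, LAG3, GATA3 and GZMA above it, and IL8 alone lies far below 0 on both axes. The difference of the correlations was called for 0 of the 42 genes.

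The markers of other cell types on the panel were not called with either gene by Spearman correlation over the 34 tumors. NCR1, an activating receptor of NK cells, had a rho of 0.259 with CD3e and 0.118 with CD8a, and Pax5, the B cell factor, had 0.346 and 0.251. CLEC4C of plasmacytoid dendritic cells had -0.078 and -0.064, and SELP of platelets and activated endothelium had -0.075 and -0.280. The levels of NCR1 ranged from 2.55 to 7.27 across the tumors and those of Pax5 from 3.27 to 7.46. Both genes were low, with means of 4.91 and 4.87 and lower quartiles of 4.04 and 4.27. Both means lay below the mean log2 of 5 that an alternative setting required. Values this low can lie near the negative-control background, and how many lay below it is not reported here. With all values raised to at least that background, 23 genes were called with each marker. All of these were among the main calls, so NCR1 and Pax5 were again not called. The missing calls of these low genes do not show that NK cells or B cells are unrelated to either marker. Other settings did give calls. Pax5 was called positive by Pearson's r with CD3e (0.509, adjusted p = 0.00471) and with CD8a (0.455, adjusted p = 0.0130), and by rho with CD3e in the 27 tumors with a ratio below 2 (0.467, adjusted p = 0.0321). With equal medians CLEC4C was called negative with CD3e (-0.68) and CD8a (-0.57), as was SELP (-0.49 and -0.61). Positive-control scaling, which called 39 of 43 genes with CD3e and 37 with CD8a, called NCR1 positive (0.551 and 0.357). It also called Pax5 (0.565 and 0.506) and CLEC4C (0.606 and 0.533) positive, but not SELP (0.309 and 0.129). These correlations, too, include differences in RNA amount between samples. The sign of CLEC4C thus depended on the scaling. The part of these cells in the levels of CD3e and CD8a was not tested.

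A test of the difference between a gene's correlation with CD8a and that with CD3e called 0 of 42 genes, or 0.0%, with 9 at an unadjusted permutation p below 0.05. After scaling to equal medians ICOS (-0.43) and CTLA4 (-0.41) were called, both correlated less with CD8a than with CD3e. A joint fit asked which genes follow one marker among tumors with equal values of the other. In it, 8 of the 42 genes, or 19.0%, were called for CD3e given CD8a, all of them positive (limma with Benjamini-Hochberg adjustment). They were CD27, CD28, ICOS, CTLA4, TBX, PRF1, FOXP3 and GPR146, an orphan G protein-coupled receptor.

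For each SD of CD3e at a fixed CD8a value, CTLA4 was higher by 1.26 on the log2 scale (standard error 0.24, limma adjusted p = 6.61e-05). ICOS was higher by 1.22 (standard error 0.20), CD27 by 1.20 (standard error 0.19) and CD28 by 1.18 (standard error 0.19), each at a limma adjusted p of 5.14e-06. After scaling to equal medians these 4 T cell receptors stayed called with smaller estimates, at 0.52 for CTLA4, 0.57 for ICOS, 0.66 for CD27 and 0.54 for CD28, while TBX, PRF1, FOXP3 and GPR146 were not called. Under that scaling BCL6 (-0.58), CD70 (-0.91), IFNg (-0.47) and KDM6B (-0.75) were called negative. For CD8a given CD3e, 0 genes, or 0.0%, were called by limma, with 7 at an unadjusted p below 0.05. Among these were IL8, at -2.01 for each SD of CD8a (standard error 0.65, limma adjusted p = 0.165), and GZMA, at 0.91 (standard error 0.35, limma adjusted p = 0.199). The markers themselves were correlated at a Pearson's r of 0.895.

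CD8a minus CD3e was related to few genes, with 3 of 42 called, or 7.14%. LAG3 was higher in tumors with more CD8a relative to CD3e (rho 0.524, permutation p = 0.00179, adjusted p = 0.0346), as was GATA3 (rho 0.509, p = 0.00247, adjusted p = 0.0346), while IL8 was lower (rho -0.520, p = 0.00193, adjusted p = 0.0346). Pearson's r was 0.440 for LAG3, 0.383 for GATA3 and -0.496 for IL8, none of them called (adjusted p = 0.131, 0.253 and 0.129). Without the tumors of patients 12 and 21, which lay farthest from the median difference, rho was 0.492, 0.519 and -0.514, and none was called (adjusted p = 0.0712 for LAG3 and 0.0645 for the others). GZMA came next at 0.467 and was not called (adjusted p = 0.0611). CD8a minus CD3e itself rose with CD8a plus CD3e (r 0.453, permutation test p = 0.00675). A gene that follows both markers can therefore correlate with it too. The correlation with CD8a less that with CD3e was 0.062 for LAG3, 0.102 for GATA3 and -0.198 for IL8, none called. In the joint fit none of these 3 was called for CD8a given CD3e (limma adjusted p = 0.1995, 0.2605 and 0.1652).

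At the ends of the range, the tumor of patient 12 had a LAG3 value of 8.33, a GATA3 value of 8.08 and an IL8 value of 14.67. The tumor of patient 21 had values of 9.55, 8.39 and 12.10. Between these tumors LAG3 and GATA3 were higher and IL8 was lower in patient 21, although the GATA3 value of patient 12 was close to the median of 8.05 over all tumors. The values of IL8 across the tumors ranged from 10.37 to 18.60, those of LAG3 from 6.93 to 10.17 and those of GATA3 from 6.18 to 11.94. The relations were not called within the positive-control classes. In the 27 tumors with a ratio below 2, rho was 0.394 for LAG3, 0.404 for GATA3 and -0.387 for IL8 (adjusted p = 0.489 for each). In the 7 above 2 it was 0.321, -0.036 and -0.786 (exact permutation, adjusted p = 0.746, 1.0 and 0.55).

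**Figure D5:**
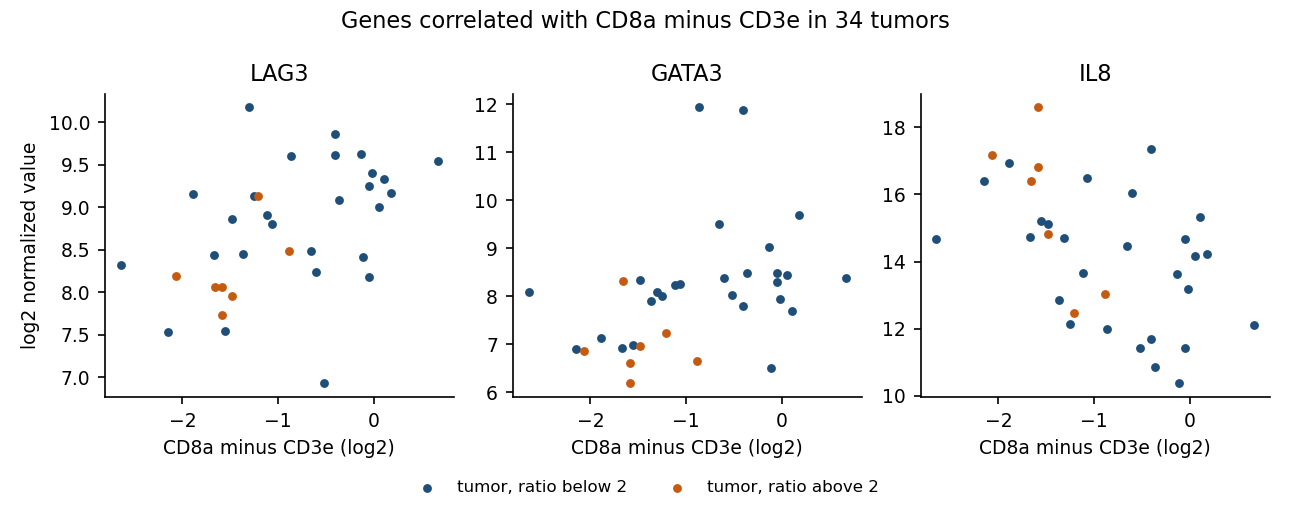
Log2 normalized values of LAG3, GATA3 and IL8 against CD8a minus CD3e in the 34 tumors, 1 point per tumor, coloured by positive-control ratio. LAG3 and GATA3 tend upward (rho 0.524 and 0.509) and IL8 downward (rho -0.520), and the 7 tumors with a ratio above 2 lie in the left part of each panel, between -2.07 and -0.89.

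Over the 34 tumors depth was not called as related to either marker. Spearman's rho with the log2 total count was 0.247 for CD3e and 0.194 for CD8a (permutation test, adjusted p = 0.408 for both, n = 34), and -0.050 for CD8a minus CD3e (adjusted p = 0.780). Pearson's r was 0.140, 0.039 and -0.160 (adjusted p = 0.638, 0.828 and 0.638). Without the tumors of the most extreme depth, rho was 0.381 for CD3e and 0.342 for CD8a (adjusted p = 0.0829 for both). In the 27 tumors with a ratio below 2, rho was 0.324 for CD3e and 0.302 for CD8a (adjusted p = 0.189 for both). Without the tumors of the most extreme depth in that class, both were called, at 0.480 for CD3e and 0.493 for CD8a (adjusted p = 0.0238 for both, n = 25).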

How the data were processed

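Expression of 48 genes was measured in 34 canine OSCC tumors and 2 mucosa samples by NanoString nCounter, which counts probe-bound transcripts without amplification. The authors deposited housekeeping-normalized signal values, and the geometric mean of ALAS1, GUSB, RPL30 and SDHA was equal across samples (8978.08 to 8978.09). The authors analyzed the counts in nSolver, with no version stated. Of 1728 gene values, 1727 were whole counts times 1 factor per sample (tolerance 0.02 counts), which gave total counts.

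Values were log2 transformed with no pseudocount. Group differences were fitted over the 44 immune genes in R 4.3.3 (limma 3.58.1), and correlations were tested by permutation with 100000 draws (exact for 7 tumors) in Python 3.11.15 with scipy 1.17.1, all adjusted by Benjamini-Hochberg and called at an adjusted p below 0.05. In the joint fit both markers were standardized. The limma fits and the Spearman correlation test were tried on simulated data. Samples were treated as independent, although some share a dog, so p-values measure the spread between these samples.

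CD3e, CD8a, the gene lists and the division by positive-control ratio were chosen with earlier results of these data known. Genes named are the 8 highest and 4 lowest by correlation with each marker, those called for CD8a minus CD3e, for the difference of correlations or in the joint fit, and those of the lists. A few panel genes are not reported by name here, and those with no call are given as counts.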

Additional observations from a re-analysis of the deposited data

How the results depend on the processing

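Leaving out the mucosa of patient 8 or 9 gave CD3e differences from 1.30 to 3.43, CD8a differences from 1.95 to 2.32 and differences of CD8a minus CD3e from -1.11 to 0.65, the last a reversal. The single remaining mucosa sample is then assumed to vary like the tumors. Counting patients 33 and 34, the tumors highest in both genes, as 1 sample brought CD3e past the threshold (2.25, limma adjusted p = 0.0383). Leaving them out did so as well (2.13), a setting chosen after seeing the data. The unequal-variance test called CD8a (2.14). Between positive-control classes CD8a passed the threshold with equal medians (1.59), positive-control scaling (2.39), the pair as 1 sample (1.88, limma adjusted p = 0.0493) and without the pair (1.73). The SDs of CD8a and CD3e differed by 0.247 and 0.254 within the classes. Equal medians gave 14 genes related to CD8a, 1 to CD8a minus CD3e (IL8), 2 for the difference of correlations and 1 (IL8) for CD8a given CD3e. Positive-control scaling gave 39 genes related to CD3e, 37 to CD8a, 0 to CD8a minus CD3e and 25 for CD3e given CD8a. Tumors with a ratio above 2 alone gave 0 with each marker (permutation test, 12 genes each at an unadjusted exact p below 0.05). For CD8a minus CD3e, 0 genes were called with SDHA left out, a pseudocount of 20, at least 100000 counts, Pearson's r, either ratio class alone or no 2 farthest tumors (permutation tests throughout). Reversed single values with equal medians included LAG3 (-0.192), TNF (-0.065), ICOSLG (-0.312), IFNg (-0.509), IL10 (-0.339), GPR146 (-0.148) and CCL2 (-0.002) with CD3e. With CD8a they included TNF (-0.323), ICOSLG (-0.249), IFNg (-0.361), IL10 (-0.283), GPR146 (-0.281) and CCL2 (-0.035). With a ratio above 2 they included TNF (-0.143) and ICOSLG (-0.25) with CD3e, ICOSLG with CD8a (-0.321) and GATA3 with CD8a minus CD3e (-0.036). Depth with CD8a minus CD3e was 0.0092 with a ratio below 2. The causes were not tested. With equal medians 18 genes were related to CD3e, 7 positive and 11 negative against 24 and 0, with 7 shared, and the joint fit called 8 for CD3e, 4 of each sign. No paired analysis was possible because the labels do not say which tumor and mucosa samples share a dog. The 2 mucosa samples limit every comparison with normal tissue.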
